A study of Caenorhabditis elegans with 6 samples.

Results

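The 6 genes described here encode enzymes that make and activate monomethyl branched-chain fatty acids in Caenorhabditis elegans: pod-2, fasn-1, elo-5, elo-6, let-767 and acs-1. They were chosen by their known roles in building, elongating and activating these chains, and are 6 of the 46778 genes listed in the count tables. All 6 were found in the tables and had enough reads to be tested. RNA sequencing was done on whole worms labelled as L4 larvae. They had hatched without food and were fed from the first larval stage on Escherichia coli OP50, the usual laboratory food, or on Microbacterium sp. JUb74, a diet whose content of branched chain fatty acids is called rich in the series title. The 5 groups were wild type (WT, library name N2) on OP50, WT on JUb74, scav-4(unk59) (library name CGZ413) on OP50, scav-4(unk59) on JUb74 and scav-4(unk49) (library name CGZ337) on OP50, with 2 libraries each. scav-4 is related to the mammalian scavenger receptor CD36, the labels do not describe the lesion of either allele, and scav-4(unk49) on JUb74 was not analysed here. The labels do not say whether a group's libraries are from separate cultures, so n = 2 counts libraries and p-values measure only the spread between them, which may be technical.

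Monomethyl branched-chain fatty acids carry a methyl branch near the end of a saturated chain. In worms the chain starts from a branched primer that is made from leucine, is extended with malonyl-CoA units by fatty acid synthase, and is lengthened further by elongases that work with a ketoacyl reductase. C. elegans makes its own branched chains and needs them for larval growth, and it builds branched chains into the backbone of its sphingolipids. A bacterial food can also supply such chains directly. In bulk RNA from whole worms, fewer cells of a type and less RNA per cell cannot be told apart.

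Depth was nearly equal, at 21937088 to 22692632 read pairs in genes per library. scav-4 itself had 141 and 162 reads in the unk49 libraries. It had 775 and 802 reads in unk59 on OP50, 890 and 761 in unk59 on JUb74, 1031 and 803 in WT on OP50, and 688 and 234 in WT on JUb74, so its level separates unk49 but not unk59 from WT. Markers of intestine, muscle and germline were detected in every library. Libraries carrying the same L4 label differed widely in markers of maturation. The summed level of 9 oocyte and eggshell markers lay between 1365 and 4019 CPM (read counts scaled to a common library size, the usual CPM unit) in unk59 on JUb74 and unk49 on OP50, but between 9.76 and 74.6 CPM in the other 3 groups. These 3 groups also differed among themselves: the oocyte and eggshell sum was 73.0 to 74.6 CPM in WT on OP50, 9.76 to 12.7 CPM in WT on JUb74 and 12.2 to 24.0 CPM in unk59 on OP50. For the diet in WT, 7 of 8 germline, 5 of 9 oocyte and eggshell, 3 of 8 sperm and 5 of 6 yolk markers fell on JUb74 and 0 rose. For the diet in unk59, 8 of 8 germline, 9 of 9 oocyte and eggshell and 7 of 8 sperm markers rose on JUb74 and 0 fell. There 0 of 6 yolk markers passed, but the unk59 libraries on OP50 disagreed in their yolk sums, at 73.2 and 5410 CPM. On JUb74 these sums were 14961 and 9721 CPM, so a yolk difference could have been missed at that spread. The summed level of the 7 moulting epidermis markers was 131 to 872 CPM in unk59 on JUb74 and unk49 on OP50. Elsewhere it was 2316 to 3222 CPM, a pattern opposite to the oocyte and eggshell sum. For the diet, 1 of the 7, bli-1, fell on JUb74 in WT, all 7 fell in unk59, and 0 rose in either. On JUb74, bli-1 was higher in unk59 than in WT and the other 6 were lower, where 59% of all genes passed. The 10 intestine markers summed to 7546 to 9371 CPM in unk59 on JUb74 and to 14310 to 25897 CPM in the other groups. asp-1 weighs most in that sum, with 125061 to 402771 reads per library. Gene by gene, 0 of the 10 passed for the diet in WT, and in unk59 9 fell and 0 rose on JUb74. In unk49 against WT on OP50, elt-2, act-5 and pept-1 were lower and mtl-2 was higher. Of all genes, 8.94%, 59.8% and 46.3% passed in these comparisons. None of the intestine, germline, yolk, muscle or moulting markers was at 0 reads in any library, whereas up to 4 of the 8 sperm markers were at 0 in a library of WT on JUb74.

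**Figure D1:**
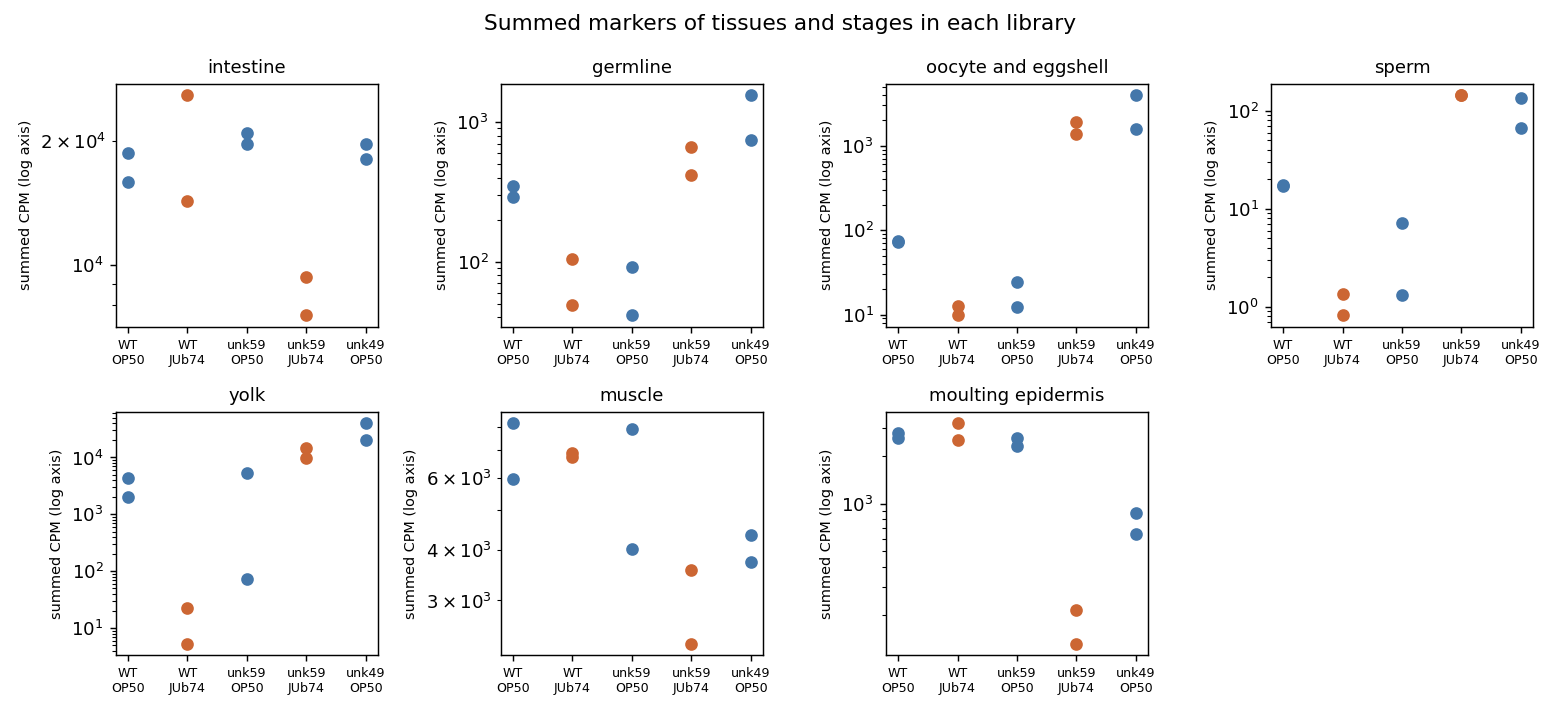
Summed CPM (log axis) of the marker lists for 7 tissues or stages, 1 point per library, with OP50 libraries in blue and JUb74 libraries in orange. The oocyte and eggshell sums of unk59 on JUb74 and unk49 on OP50 lie at or above 1365 CPM and those of the other groups at or below 74.6 CPM, whereas the intestine sums are lowest in unk59 on JUb74.

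The 6 genes did not all follow the same pattern over the groups. acs-1 was low in all 4 libraries from JUb74-fed worms (WT and unk59) and high in all 6 libraries from OP50-fed worms (WT, unk59 and unk49). fasn-1 was low in unk59 on JUb74 and in unk49 on OP50, and high in WT on either food. elo-5 was highest in unk59 on JUb74. pod-2 was highest in WT on JUb74, elo-6 varied less, and let-767 had the smallest variation of the 6. Over the 10 libraries the standard deviation of log2 CPM was 1.14 for acs-1, 1.07 for fasn-1, 0.71 for elo-5, 0.50 for pod-2, 0.47 for elo-6 and 0.31 for let-767, against a median of 0.64 over the 15950 genes tested.

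**Figure D2:**
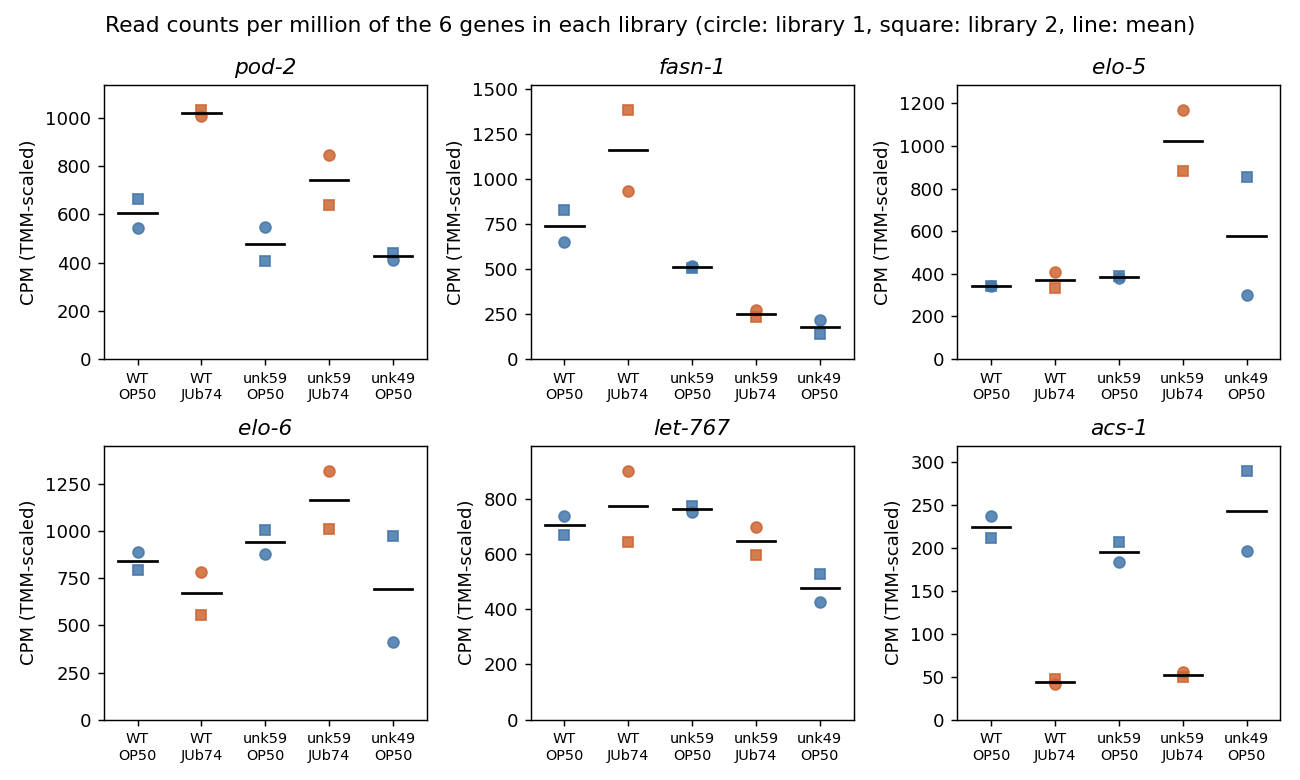
CPM of the 6 genes in each library, with library 1 as a circle, library 2 as a square, the group mean as a line, OP50 in blue and JUb74 in orange. The acs-1 values of the JUb74 libraries lie between 41.1 and 55.1 CPM and those of the OP50 libraries between 183 and 290 CPM, whereas fasn-1 falls to between 138 and 270 CPM in unk59 on JUb74 and unk49 on OP50.

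By WBcel235 coordinates, the build named in the submitters' processing notes, elo-5 (WBGene00001243) lies on the minus strand of chromosome IV from 5374616 to 5377117. elo-6 (WBGene00001244) lies on the same strand from 5386629 to 5388559, separated from elo-5 by 9511 bases that hold 3 protein-coding genes. Each encodes a protein of 274 residues. let-767 (WBGene00002891) is on the minus strand of chromosome III from 6338508 to 6339969, and acs-1 (WBGene00018488) on the plus strand of chromosome V from 6524989 to 6532089. The largest genes are pod-2 (WBGene00004076), on the plus strand of chromosome II from 1136785 to 1152705 with 6855 bases of merged exon, and fasn-1 (WBGene00009342), on the minus strand of chromosome I from 8975366 to 8986540 with 8451 bases. Their longest annotated proteins have 2165 and 2613 residues.

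Some exons overlap other genes, and reads that fall there can be left out as ambiguous. On the other strand, which matters because the counts used ignore strand, the overlap is 162 of the 922 exon bases of elo-5 with F41H10.3, 139 bases of pod-2 with W09B6.4 and 19 bases of acs-1 with hpo-26. acs-1 also shares 21 bases with the piRNA gene 21ur-15248 on its own strand. F41H10.3 had between 33.9 and 90.4 CPM, so reads of either gene that reach into its shared bases could not be given to it. The exons of elo-6, let-767 and fasn-1 overlap no other annotated gene.

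Per length, the elongation enzymes were the most abundant. In WT on OP50 elo-6 stood at 907.5 ± 75.8 RPKM (CPM divided by the exon length in kb), let-767 at 629 ± 42.2 and elo-5 at 373 ± 1.39 (SD, n = 2 each). On the same per-length scale the activating enzyme acs-1 (93.3 ± 7.42), pod-2 (88.2 ± 12.6) and fasn-1 (87.4 ± 14.9) followed, and their library values overlapped, so these 3 could not be ranked. In WT on JUb74 acs-1 fell to the last place, at 18.3 ± 1.74 RPKM, below fasn-1 at 137 ± 37.5. In unk59 on JUb74 elo-5 (1112 ± 221) came level with elo-6 (1258 ± 236), and the libraries of these genes overlapped. acs-1 was also last there, at 21.9 ± 1.48 RPKM, below fasn-1 at 29.9 ± 3.01. In unk49 on OP50 fasn-1 was last, at 21.1 ± 6.66 RPKM.

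**Figure D3:**
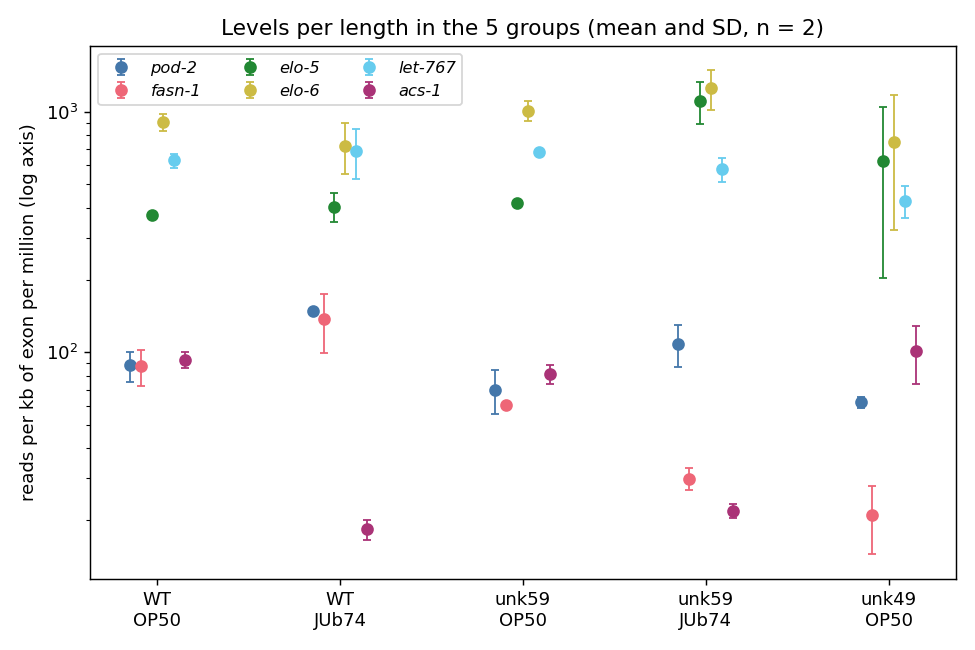
Mean RPKM (CPM divided by exon length in kb, log axis) of the 6 genes in the 5 groups, with the SD of 2 libraries as bars. elo-6, let-767 and elo-5 lie above pod-2, fasn-1 and acs-1 in every group, and acs-1 drops to about 20 RPKM in both JUb74 groups (18.3 and 21.9).

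acs-1 encodes the acyl-CoA synthetase that activates the branched chains. It had 237 and 212 CPM in the libraries of WT on OP50 and 183 and 207 CPM in those of unk59 on OP50. In unk49 on OP50 it had 196 and 290 CPM. On JUb74 it had only 41.1 and 47.0 CPM in WT and 55.1 and 50.1 CPM in unk59. No JUb74 library reached the lowest OP50 library, and the ranges of the foods lay far apart. The fall on JUb74 was 5.08-fold in WT (log2 fold change -2.35, SE 0.22, 95% interval -2.84 to -1.85, adjusted p 0.00406, from the quasi-likelihood test of edgeR, adjusted after Benjamini and Hochberg over all genes tested). In unk59 it was 3.71-fold (log2 fold change -1.89, SE 0.216, interval -2.38 to -1.41, adjusted p 0.000144).

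The diet difference of acs-1 was not shown to depend on the genotype. The interaction of diet and genotype was 0.45 on the log2 scale (SE 0.296, interval -0.21 to 1.12, adjusted p 0.243). Over the 19 alternatives it lay between 0.36 and 1.17. Within a food, acs-1 passed in no comparison of genotypes by the test above. It passed for unk59 against WT on JUb74 with the intestine scaling given below. The log2 fold change of unk59 against WT was -0.20 on OP50 (interval -0.67 to 0.27, adjusted p 0.751) and 0.25 on JUb74 (interval -0.22 to 0.73, adjusted p 0.321). For unk49 against unk59 on OP50 it was 0.32 (interval -0.15 to 0.79, adjusted p 0.223), and 0.02 to 0.52 with a library left out. unk49 against WT on OP50 gave 0.12 (interval -0.35 to 0.59, adjusted p 0.668), a sign that turned to -0.27 without unk49 library 2 and to -0.08 under upper-quartile scaling. Without library 2 of WT on JUb74 it was 0.00 (exactly -0.0031, adjusted p 0.991).

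unk59 on JUb74 and unk49 on OP50 were the groups with high oocyte and eggshell markers, and they differ in both allele and food. Between them acs-1 was 4.62-fold lower in unk59 on JUb74 (log2 fold change -2.21, SE 0.218, adjusted p 0.000888). Because allele and food differ together there, their parts in that value cannot be told apart. For the diet, the germline and oocyte markers had medians of -2.44 and -2.73 on the log2 scale in WT and of 3.07 and 6.72 in unk59. The part of these markers in the acs-1 result was not tested. Scaling the library sizes to the intestine markers was an alternative added after the data were seen. With it the diet difference of acs-1 was past the threshold, at -2.04 in WT (adjusted p 0.0115) and -0.87 in unk59 (adjusted p 0.0245). That scaling raised the median of all genes by 0.27 for the diet in WT and by 1.02 in unk59. It also put acs-1 past the threshold for unk59 against WT on JUb74, at 0.89 (adjusted p 0.0258), where the median of all genes rose by 0.67. Leaving out any library kept the diet difference of acs-1 past the threshold in both genotypes.

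For the 6 genes as a group, the diet comparison in WT gave 1 gene past an adjusted p of 0.05, acs-1, and it was lower on JUb74. Of all genes tested, 8.94% passed in that comparison, 2.65% higher on JUb74 and 6.29% lower there. For the 6 genes the median log2 fold change was 0.13, against -0.0034 over all genes. In unk59 the diet comparison called 4 of the 6 genes, where 59.8% of all genes passed (33.5% higher and 26.3% lower), so that count was near the background. elo-5 and pod-2 rose on JUb74 while fasn-1 and acs-1 fell. The median of the 6 was 0.04, against 0.08 over all genes. These comparisons share no library with each other, but each shares libraries with the genotype comparisons given further on.

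**Figure D4:**
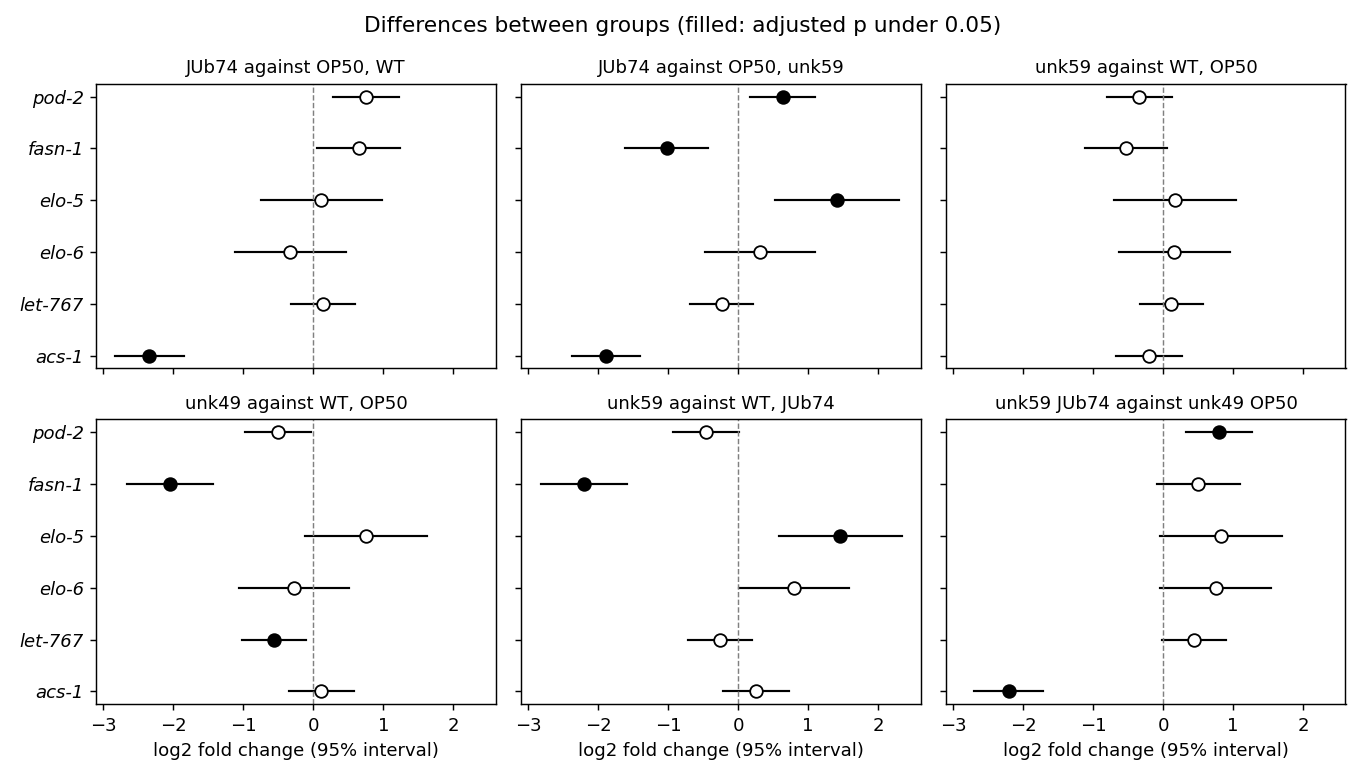
Log2 fold changes of the 6 genes with their 95% intervals in 6 comparisons; filled points have an adjusted p under 0.05. acs-1 differs only in the 3 panels that set a JUb74 group against an OP50 group (-2.35, -1.89 and -2.21). In the last of these the allele differs too. fasn-1 is lower in unk49 on OP50 (-2.05) and in unk59 on JUb74 (-2.20) than in WT on the same food.

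pod-2 encodes acetyl-CoA carboxylase, which makes the malonyl-CoA used for chain extension. Its CPM were 543 and 665 in WT on OP50, 1009 and 1033 in WT on JUb74, 547 and 408 in unk59 on OP50, 844 and 639 in unk59 on JUb74, and 410 and 440 in unk49 on OP50. JUb74 libraries lay above OP50 libraries within each genotype, but the lowest JUb74 library, at 639 CPM, was below the highest OP50 library, at 665 CPM. In WT the difference was 1.69-fold (log2 fold change 0.76, SE 0.208, interval 0.29 to 1.23), with an adjusted p of 0.0536 that just missed the threshold. It passed with DESeq2 (0.72, adjusted p 0.0168), with no filter on low counts (adjusted p 0.0470), and without unk59 library 1 on OP50 (adjusted p 0.0416) or library 2 (adjusted p 0.0414).

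In unk59 pod-2 rose 1.55-fold on JUb74 (log2 fold change 0.63, SE 0.208, adjusted p 0.0251). That call rested on single libraries: the value was 0.43 without unk59 library 2 on OP50 (adjusted p 0.180) and 0.42 without unk59 library 1 on JUb74 (adjusted p 0.183). The interaction was -0.12 (interval -0.78 to 0.54, adjusted p 0.767), so the data do not separate the genotypes in this respect. pod-2 was also 1.74-fold higher in unk59 on JUb74 than in unk49 on OP50 (log2 fold change 0.80, SE 0.209, adjusted p 0.0312). Without unk59 library 1 on JUb74 that value was 0.59 (adjusted p 0.232), and it lost its call without unk49 library 1 (0.79, adjusted p 0.0933) or without either library of WT on OP50 (both 0.80, adjusted p 0.0542 and 0.0543).

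fasn-1 encodes fatty acid synthase, which builds the chain on its primer. It had 650 and 828 CPM in WT on OP50 and 935 and 1384 CPM in WT on JUb74. In unk59 it had 519 and 505 CPM on OP50 and 270 and 234 CPM on JUb74. In unk49 on OP50 it had 218 and 138 CPM, the lowest of any group. The WT libraries lay above all mutant libraries. The interaction of diet and genotype for fasn-1 was -1.67 on the log2 scale (SE 0.372, interval -2.51 to -0.83, adjusted p 0.00581). It was the only one of the 6 genes past the threshold for the interaction, where 43.3% of all genes passed (23.3% higher and 20% lower).

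On JUb74 against OP50, fasn-1 in WT was 1.57-fold higher (log2 fold change 0.65, SE 0.262, adjusted p 0.160), which did not pass. In unk59 it fell 2.03-fold (log2 fold change -1.02, SE 0.264, adjusted p 0.00856), a call lost without library 2 of unk59 on JUb74 (-0.94, adjusted p 0.0711). On JUb74 unk59 was 4.60-fold below WT (log2 fold change -2.20, SE 0.273, adjusted p 0.000171). On OP50 unk49 was 4.15-fold below WT (log2 fold change -2.05, SE 0.272, adjusted p 0.000731) and 2.87-fold below unk59 (log2 fold change -1.52, SE 0.267, adjusted p 0.00154). On OP50 unk59 lay below WT by -0.53 (interval -1.12 to 0.06, adjusted p 0.496), a difference not detectable at this spread. Between unk59 on JUb74 and unk49 on OP50 it was 0.50 (interval -0.09 to 1.09, adjusted p 0.193).

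The 4 libraries with the lowest fasn-1 were those with the highest sums of oocyte and eggshell markers, at 1365 to 4019 CPM. They also had the lowest sums of moulting markers, at 131 to 872 CPM. The part of these differences in the fasn-1 result was not tested. Scaled to the intestine markers, the diet difference of fasn-1 in unk59 was -0.01 (adjusted p 0.986) and the interaction -0.99 (adjusted p 0.195). That scaling raised the median of all genes by 1.02 on the log2 scale for the diet in unk59. The differences of unk59 from WT on JUb74 (-1.61, adjusted p 0.00580) and of unk49 from WT on OP50 (-1.93, adjusted p 0.00487) stayed past the threshold.

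elo-5 encodes an elongase that extends the branched chains and is needed for their synthesis in worms. Its CPM were 343 and 345 in WT on OP50, 409 and 336 in WT on JUb74, and 382 and 392 in unk59 on OP50. In unk59 on JUb74 they were 1170 and 881. These 2 libraries stood above all others, and the first 3 groups lay within a narrow band. In unk49 on OP50 the libraries disagreed, at 303 and 855 CPM. On JUb74 elo-5 was 2.65-fold higher than on OP50 in unk59 (log2 fold change 1.41, SE 0.393, adjusted p 0.0123), and 2.75-fold higher in unk59 than in WT (log2 fold change 1.46, SE 0.393, adjusted p 0.0104).

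Both calls were lost without library 1 of unk59 on JUb74, with values of 1.19 (adjusted p 0.0730) and 1.25 (adjusted p 0.0629). In WT the diet difference of elo-5 was 0.11 (interval -0.75 to 0.98, adjusted p 0.896), and its sign turned without library 1 of WT on JUb74 (-0.04), library 2 of unk59 on JUb74 (-0.02) or either unk49 library (both -0.02). The interaction was 1.29 (SE 0.548, interval 0.06 to 2.52) with an adjusted p of 0.0836. It passed the threshold with DESeq2 (1.41, adjusted p 0.0261) and when the fit held only the groups of the comparison (1.24, adjusted p 0.00558). It also passed with at least 10 reads in every library (1.51, adjusted p 0.0473) and with intestine scaling (2.05, adjusted p 0.00480). That scaling raised the median interaction of all genes by 0.75 on the log2 scale. The interaction of elo-5 was 1.42 without unk49 library 1 and 1.42 without library 2, neither of which enters this contrast. Each of these fits left unk49 with 1 library, so only the sizes are given, not whether they passed.

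elo-6 encodes the second elongase of the branched chains. Its CPM were 890 and 791 in WT on OP50, 784 and 556 in WT on JUb74, 876 and 1003 in unk59 on OP50, 1319 and 1010 in unk59 on JUb74, and 414 and 971 in unk49 on OP50. The highest values were those of unk59 on JUb74, as for elo-5, but here the lower of them was close to an OP50 library. No comparison of elo-6 passed the threshold. The diet difference was -0.33 in WT (interval -1.11 to 0.46, adjusted p 0.619) and 0.31 in unk59 (interval -0.48 to 1.098, adjusted p 0.465). The largest was unk59 against WT on JUb74, at 0.80 (SE 0.352, interval 0.00 to 1.59, adjusted p 0.0767). That value passed with DESeq2 (0.86, adjusted p 0.0301), in the fit of the 2 groups alone (0.79, adjusted p 0.0317), with at least 10 reads in every library (0.92, adjusted p 0.0409), and without unk49 library 1 (0.83, adjusted p 0.0105) or library 2 (0.83, adjusted p 0.0106). With intestine scaling, which raised the median of all genes by 0.67 in this comparison, it was 1.51 (adjusted p 0.000850).

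The unk49 libraries differed from each other in both elongases. Library 1 was low, at 303 CPM of elo-5 and 414 CPM of elo-6, and library 2 was high, at 855 and 971 CPM. Library 1 had the larger sum of oocyte and eggshell markers, at 4019 CPM against 1589 CPM, and their intestine sums were 18082 and 19675 CPM. The part of this difference was not tested. Against WT on OP50, unk49 gave 0.75 for elo-5 (interval -0.12 to 1.62, adjusted p 0.139), which was 1.17 without library 1 (adjusted p 0.00431) and -0.26 without library 2 (adjusted p 0.330). For elo-6 the value was -0.28 (interval -1.07 to 0.51, adjusted p 0.532), or 0.07 without library 1 (adjusted p 0.843) and -1.102 without library 2 (adjusted p 0.0159). No direction can be given for either elongase in unk49.

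let-767 encodes the ketoacyl-CoA reductase that serves fatty acid elongation. Its CPM were 737 and 670 in WT on OP50, 901 and 644 in WT on JUb74, 753 and 774 in unk59 on OP50, 699 and 596 in unk59 on JUb74, and 427 and 528 in unk49 on OP50. The unk49 libraries were the lowest and lay below every library of the other groups. unk49 was 1.47-fold below WT on OP50 (log2 fold change -0.56, SE 0.203, adjusted p 0.0471) and 1.60-fold below unk59 on OP50 (log2 fold change -0.68, SE 0.203, adjusted p 0.0192). The first call was lost under 11 of 19 alternatives. Among them were leaving out WT library 1 (-0.49, adjusted p 0.203) or WT library 2 on OP50 (-0.63, adjusted p 0.112), unk49 library 1 (-0.55, adjusted p 0.0843), either unk59 library on OP50 (both -0.56, adjusted p 0.0622 and 0.0619), and library 1 of unk59 on JUb74 (-0.56, adjusted p 0.0645). The call against unk59 was lost without unk59 library 1 (-0.70, adjusted p 0.0586), unk59 library 2 (-0.66, adjusted p 0.0678) or unk49 library 1 (-0.58, adjusted p 0.0695).

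The diet did not change let-767 detectably. The log2 fold change was 0.14 in WT (interval -0.32 to 0.59, adjusted p 0.730), which became -0.14 without library 1 of WT on JUb74 and slightly negative without library 2 of unk59 on JUb74 (-0.00019) or unk49 library 1 (-0.0035) or 2 (-0.0037), and -0.24 in unk59 (interval -0.69 to 0.22, adjusted p 0.330). The latter turned to 0.78 (adjusted p 0.0103) when libraries were scaled to the intestine markers, which lies below the shift of 1.02 in the median of all genes.

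The alleles were also compared with WT on a fixed food. On OP50, unk59 changed 0 of the 6 genes past the threshold by edgeR, and also 0 by DESeq2 and by limma-voom. An unadjusted p under 0.05 was likewise reached by 0 of the 6. Of all genes tested, 0.0125% passed and 1845 had an unadjusted p under 0.05. The log2 fold changes of the 6 genes lay between -0.53 for fasn-1 and 0.17 for elo-5. On OP50, unk49 changed 2 of the 6 genes, fasn-1 and let-767, both lower, where 46.3% of all genes passed (27.2% higher and 19.1% lower). pod-2 was lower by 0.51 on the log2 scale (log2 fold change -0.51, interval -0.98 to -0.04, adjusted p 0.0716). It passed with upper-quartile scaling (-0.71, adjusted p 0.0234), in the fit of the 2 groups alone (-0.56, adjusted p 0.0477), and without library 2 of WT on JUb74 (-0.62, adjusted p 0.0293) or of unk59 on JUb74 (-0.62, adjusted p 0.0293).

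Against unk59 on OP50, unk49 also changed 2 of the 6, fasn-1 and let-767, both lower, where 54% of all genes passed (30.2% higher and 23.8% lower). On JUb74, unk59 against WT changed 2 of the 6, elo-5 higher and fasn-1 lower, where 59% of all genes passed (33% higher and 26.1% lower). Between unk59 on JUb74 and unk49 on OP50, 2 of the 6 passed, pod-2 higher and acs-1 lower in unk59 on JUb74, where 17% of all genes passed (8.54% higher and 8.46% lower). These comparisons share libraries with each other, so their values are not independent.

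Genes around these enzymes were described from lists chosen by role. Of 4 genes of malonyl-CoA turnover and biotin attachment, 1 rose on JUb74 in WT, where 8.94% of all genes passed, and 3 rose in unk59, where 59.8% passed; 0 fell in either. The 3 that rose in unk59 include mlcd-1, whose enzyme removes malonyl-CoA. The medians were 0.32 in WT and 1.45 in unk59, against -0.0034 and 0.08 over all genes. acly-1, an ATP citrate lyase that makes acetyl-CoA, had 234 and 259 CPM in WT on OP50, 445 and 591 CPM in WT on JUb74, 186 and 143 CPM in unk59 on OP50 and 494 and 358 CPM in unk59 on JUb74. Its JUb74 libraries all lay above its OP50 libraries, those of unk49 (160 and 161 CPM) included. It rose by a log2 fold change of 1.07 in WT (SE 0.227, adjusted p 0.0270) and 1.37 in unk59 (SE 0.228, adjusted p 0.000865). acly-2, its relative, rose by 1.52 in unk59 (SE 0.413, adjusted p 0.0107). mlcd-1 rose by 1.64 in unk59 (SE 0.206, adjusted p 0.000219), and it encodes malonyl-CoA decarboxylase. bpl-1, the ligase that attaches biotin to carboxylases, was at 0.15 in WT (adjusted p 0.638) and 0.06 in unk59 (adjusted p 0.792).

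Of 6 enzymes that make or use up the primer derived from branched-chain amino acids, 0 passed for the diet in WT (8.94% of all genes) and 3 in unk59 (59.8% of all genes), 2 higher and 1 lower. The 2 that were higher are bcat-1, on the path to the primer, and ivd-1, which consumes it. Their medians were -0.22 and -0.27. bcat-1, the aminotransferase of the first step, was 0.73 higher on JUb74 in WT (SE 0.215, adjusted p 0.0642) and rose by 0.59 in unk59 (SE 0.215, adjusted p 0.0392). bckd-1A, a subunit of the dehydrogenase that yields the primer, fell by 0.45 on the log2 scale in unk59 (log2 fold change -0.45, adjusted p 0.0453). ivd-1 rose by 0.86 in unk59 (SE 0.21, adjusted p 0.00650), and its enzyme is isovaleryl-CoA dehydrogenase. In unk49 on OP50, bckd-1A was lower than in WT (-0.68, adjusted p 0.0105).

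Among the other elongases and enzymes of the elongation cycle, 2 of 9 fell and 0 rose on JUb74 in WT, and 3 rose and 1 fell in unk59, against 8.94% and 59.8% of all genes past the threshold in these comparisons. Their medians were 0.20 and 0.10. elo-2, an elongase of straight chains, had 414 and 446 CPM in WT on OP50 and 818 and 709 CPM in WT on JUb74. In unk59 it had 430 and 406 CPM on OP50 and 1240 and 1025 CPM on JUb74. Its rise passed in unk59 (log2 fold change 1.44, SE 0.251, adjusted p 0.00111), while in WT it was 0.83 (SE 0.247, adjusted p 0.0684). elo-7 was at 0 reads in both libraries of WT on JUb74 and was at least 12.7-fold lower there than on OP50 (adjusted p 0.0305), taking 3 counts per library as the floor. elo-8 also fell in WT (adjusted p 0.0402), from 12 and 10 reads to 0 and 1. Both rose on JUb74 in unk59, elo-7 from 2 and 24 reads to 109 and 184 (adjusted p 0.00891) and elo-8 from 0 and 4 reads to 232 and 217 (adjusted p 9.67e-05), and no fold is given over so few reads. elo-7 and elo-8 thus moved in the same directions as the germline, oocyte and sperm markers, whose medians were -2.44, -2.73 and -4.12 for the diet in WT and 3.07, 6.72 and 4.18 in unk59, and the part of these markers was not tested. elo-4 fell in unk59 (-0.73, adjusted p 0.0483). The reductase art-1 and the dehydratase hpo-8, which complete the elongation cycle, did not pass for the diet in either genotype. Of the 4 relatives of let-767, stdh-1 and stdh-3 had enough reads to be tested, and neither passed for the diet.

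Of 20 other acyl-CoA synthetases, 3 fell and 0 rose on JUb74 in WT, with a median of -0.01, and 8 rose and 7 fell in unk59, with a median of 0.26. Of all genes, 8.94% passed in WT, and 33.5% rose and 26.3% fell in unk59. The falling genes in WT were acs-6, acs-10 and acs-18. They averaged 1.23, 2.38 and 1.18 CPM in WT on OP50, far below acs-1 at 224 CPM. acs-18 was at 0 reads in both libraries of WT on JUb74 and was at least 8.73-fold lower (adjusted p 0.0289). All 3 rose on JUb74 in unk59: acs-6 from 2 and 18 reads to 199 and 263, acs-10 from 1 and 13 to 369 and 402, and acs-18 from 1 and 14 to 334 and 300 (adjusted p 0.000574, 0.000244 and 0.000594). acs-15 rose there from 0 and 6 reads to 74 and 86 (adjusted p 0.00220). With so few reads on OP50, no fold or order is given for these 4. Germline and oocyte markers fell on JUb74 in WT and rose in unk59 in the same way (7 of 8 and 5 of 9 lower, then 8 of 8 and 9 of 9 higher), and their part was not tested. acs-3, acs-22, acs-20 and acs-7 fell most there, with log2 fold changes of -3.15, -2.44, -2.43 and -2.35 (adjusted p between 4.48e-05 and 0.000527). In WT, the diet differences of these 4 lay between -0.47 and 0.67 and none passed. None of the 20 fell past the threshold in both genotypes, as acs-1 did. Of all genes, 6.29% fell in WT and 26.3% in unk59. The share falling in both was not computed, so this cannot be read as particular to acs-1.

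**Figure D5:**
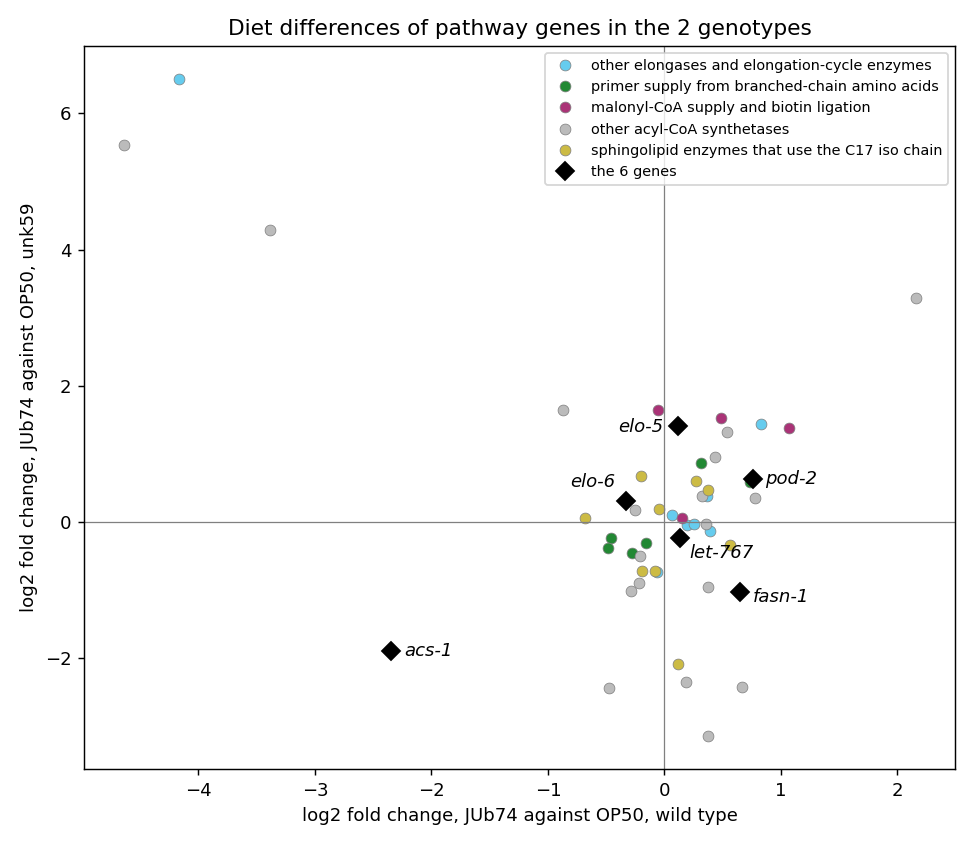
Log2 fold change of JUb74 against OP50 in WT (x axis) and in unk59 (y axis) for the 6 genes (diamonds) and the genes of 5 pathway lists (circles), without elo-7, acs-15 and acs-18, which are at 0 reads in a whole group; the 3 points at the upper left are elo-8, acs-10 and acs-6, which have at most 4 reads in a library of WT on JUb74, so their positions are imprecise. acs-1 lies at -2.35 and -1.89, pod-2 at 0.76 and 0.63, fasn-1 at 0.65 and -1.02, and elo-5 at 0.11 and 1.41.

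Of 9 enzymes of the sphingolipid pathway, into which the activated branched chain enters, 0 passed for the diet in WT (8.94% of all genes) and 4 in unk59 (59.8% of all genes). sptl-1 and sptl-3, subunits of serine palmitoyltransferase at the entry to the pathway, rose in unk59 by 0.60 (adjusted p 0.0186) and 0.68 (adjusted p 0.0300). The ceramide synthases hyl-1 and hyl-2 each fell by 0.72 on the log2 scale there (log2 fold change -0.72, adjusted p 0.0238 and 0.0124). In unk49 on OP50 the glucosylceramide synthase cgt-3 rose against WT (1.13, SE 0.257, adjusted p 0.00694), hyl-2 fell (-0.58, adjusted p 0.0382) and the ceramide synthase lagr-1 fell from 33 and 30 reads to 9 and 1 (adjusted p 0.0145). The medians of the 9 genes were -0.04 for the diet in WT, 0.06 for the diet in unk59 and 0.01 for unk49 against WT on OP50.

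Of 7 regulators of fat synthesis, 0 passed for the diet in WT (8.94% of all genes) and 1 in unk59 (59.8% of all genes). mdt-15, a Mediator subunit that regulates fatty acid genes, fell in unk59 (-0.63, SE 0.187, adjusted p 0.0165). sbp-1, the worm SREBP, was at 0.08 in WT (adjusted p 0.891) and -0.32 in unk59 (adjusted p 0.278). On JUb74, unk59 had less sbp-1 (-0.70, adjusted p 0.0332), mdt-15 (-0.68, adjusted p 0.0114) and nhr-66 (-0.60, adjusted p 0.0343) than WT, and unk49 had less sbp-1 than WT on OP50 (-0.71, adjusted p 0.0403). Among 5 genes of growth signalling, let-363, which encodes the TOR kinase, fell on JUb74 in unk59 (-0.64, SE 0.156, adjusted p 0.00641) and was the only one to pass; in WT 0 of 5 passed.

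The genes whose pattern over the 10 libraries was most like each of the 6 were sought among 7880 genes whose mean log2 CPM was 2 or more and whose standard deviation was 0.3 or more. Likeness was the root mean square difference of log2 CPM centred on each gene's mean, so that 0 is an identical pattern. For acs-1 the nearest were F22B8.7 (0.31), clec-48 (0.33) and col-76 (0.47), against a standard deviation of 1.14 for acs-1 itself. Since they were picked for this likeness over the same libraries, their diet differences are a description: the log2 fold changes in WT and unk59 were -2.48 and -2.28 for F22B8.7, -1.51 and -1.84 for clec-48, and -1.19 and -1.62 for col-76.

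For fasn-1 the nearest patterns were those of ncam-1 (0.21), cdh-1 (0.21) and rml-4 (0.24), against its own standard deviation of 1.07. The nearest were snf-6 (0.13), hecw-1 (0.16) and C09D4.1 (0.17) for pod-2, C35D10.10 (0.16), T28C6.8 (0.16) and dnj-21 (0.18) for elo-5, and R07E4.3 (0.14), T04F3.4 (0.16) and F22F4.4 (0.18) for elo-6. For let-767 they were nhr-31 (0.06), saeg-1 (0.09) and aakb-1 (0.11). Among the 6 genes the smallest distance was elo-6 with let-767 (0.40), followed by let-767 with pod-2 (0.43) and elo-5 with elo-6 (0.47). The largest was acs-1 with fasn-1 (1.69). These distances are not scaled for spread, and both of these let-767 distances exceed its own standard deviation of 0.31. The standard deviations of elo-5 and elo-6 were 0.71 and 0.47. The order is therefore not a ranking of shared movement.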

How the data were processed

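RNA of whole worms was sequenced in 10 libraries from 5 GEO samples. The authors deposited raw counts per gene, in whole numbers. STAR 2.7.10, DESeq2 and the build WBcel235 are named in the submitters' processing notes, and the annotation release is not given in the sources used here. The labels call the kit strand-specific, but unstranded counts were used, because the strand columns split genes evenly (a median of 49.8% to 50.1% in the larger column). Summary entries (unmapped, multimapped, outside genes, ambiguous) held 6.64% to 7.91% of pairs and stayed out. The tables of a sample differed by a chi-square of 19.8 to 88.9 per degree of freedom, above the limit of 1.1, and entered as separate libraries. One table (3 columns) linked to no sample was not used.

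Counts were analysed with edgeR 4.0.16 in R 4.3.3: TMM scaling, filterByExpr (15950 genes), a mean per group, robust quasi-likelihood F tests (two-sided), Benjamini-Hochberg adjustment over all genes tested, threshold 0.05. Fitting all groups together shares the spread (biological coefficient of variation 23.4%). SEs come from the log2 fold change and F. CPM used TMM-scaled library sizes. Gene models came from Ensembl release 115, which held 46603 of the 46778 IDs. The test was checked on simulated counts in which few genes changed, evenly up and down and in WT on JUb74 only. That check does not cover comparisons in which most genes passed. Alternatives were 2 scalings, 2 filters, a strand column, DESeq2 1.42.0, limma-voom (limma 3.58.1), the groups of a comparison alone, each library left out, and, added after the data were seen, scaling to 10 intestine markers. The members, the 8 pathway lists and the 7 marker lists were chosen with earlier results of these data known. The text names the 6 members, the 3 genes most alike to each, and up to 4 genes in each direction from a pathway list past the threshold; other genes are named to give a value that did not pass.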

Additional observations from a re-analysis of the deposited data

Results flagged for a closer look

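For fasn-1 the effect of the diet differed between WT and unk59 by the test of the difference itself, with an interaction of -1.67 on the log2 scale (SE 0.372, adjusted p 0.00581, edgeR). Both libraries of WT on JUb74 (935 and 1384 CPM) lay above those of WT on OP50 (650 and 828 CPM), and both libraries of unk59 on JUb74 (270 and 234 CPM) lay below those of unk59 on OP50 (519 and 505 CPM). Over the 19 alternatives the interaction lay between -1.93 and -0.99, and its adjusted p between 0.000686 and 0.195, the latter with libraries scaled to the intestine markers.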

How the results depend on the processing

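Each of the 48 values (6 genes in 8 comparisons) was recomputed under 19 alternatives. Of these 912 values, 822 kept direction and side of the threshold, 26 lost and 34 gained a call, and 30 changed sign. acs-1 kept its calls for the diet in both genotypes under all alternatives (-2.60 to -2.04 in WT, -1.98 to -0.87 in unk59), and fasn-1 its calls for unk49 against WT on OP50 (-2.55 to -1.84) and unk59 against WT on JUb74 (-2.45 to -1.61). unk59 against WT on OP50 kept 0 calls throughout.

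The number of the 6 genes called was 2 in place of 1 for the diet in WT with no filter on low counts and with DESeq2, and 2 in place of 1 for the interaction with at least 10 reads in every library, DESeq2, the groups of the comparison alone and intestine scaling. For unk49 against WT on OP50 it was 1 in place of 2 with relative log expression scaling, no filter, at least 10 reads, the strand column and intestine scaling, and 3 with upper-quartile scaling and the groups alone. For unk59 against WT on JUb74 it was 3 in place of 2 with at least 10 reads, DESeq2 and the groups alone. Intestine scaling also gave 5 for the diet in unk59, 1 for unk49 against unk59 and 4 for unk59 against WT on JUb74. It gave 6 for unk59 on JUb74 against unk49 on OP50, where it raised the median of all genes by 0.85 on the log2 scale. The share of all genes passing under that scaling was not computed, so these counts cannot be read as particular to the 6 genes. Leaving out a library gave 1 to 2 calls for the diet in WT, 2 to 4 for the diet in unk59, 0 for unk59 against WT on OP50, 1 to 3 for unk49 against WT or unk59 on OP50 and for unk59 against WT on JUb74, 1 to 4 for unk59 on JUb74 against unk49 on OP50, and 1 to 2 for the interaction.

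Signs turned under intestine scaling for let-767 (interaction 0.41, diet in unk59 0.78, unk59 against WT on JUb74 0.46) and pod-2 (interaction 0.60, unk59 against WT on JUb74 0.19). That scaling moved the all-gene median by 0.27 for the diet in WT, 1.02 for the diet in unk59 and 0.75 for the interaction. The shift was 0.67 for unk59 against WT on JUb74, 0.17 for unk49 against unk59 and 0.85 for unk59 on JUb74 against unk49 on OP50. With at least 10 reads, pod-2 turned for the interaction (0.090) and for unk49 against unk59 (0.0028), and upper-quartile scaling turned acs-1 for unk49 against WT (-0.080). Leaving out a library gave ranges that cross 0 for elo-5 (diet in WT, -0.044 to 0.11; unk49 against unk59, -0.34 to 1.101; unk49 against WT, -0.26 to 1.17), elo-6 (unk49 against unk59, -1.17 to 0.00056; unk49 against WT, -1.102 to 0.069), let-767 (diet in WT, -0.14 to 0.21; unk59 against WT on JUb74, -0.43 to 0.0075), pod-2 (interaction, -0.33 to 0.19; unk49 against unk59, -0.37 to 0.059) and acs-1 (unk49 against WT, -0.27 to 0.23). The cause was not tested. No paired analysis was possible because the labels give the libraries no replicate numbers. With 2 libraries a group, small changes could pass unseen.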
